A study of Mus musculus with 4 samples.

Results

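Caveolins and flotillins are the scaffold proteins of membrane microdomains, and 5 of their genes were followed here among the 17013 genes listed: Cav1, Cav2, Ptrf (the older symbol of Cavin1), Flot1 and Flot2. They were chosen by name, as proteins of caveolae and lipid rafts, with the Fat against Con differences of these same libraries already in view. Their Fat against Con values are therefore given as a description, and no test is read from them. All 5 passed the filter on low values, which left 12470 genes. Mouse bone marrow-derived macrophages from wild-type (WT) C57BL/6 males, matured in M-CSF, were kept on porous inserts for 24 h with necrotic fat, in 2 groups of 2 libraries. Both groups received artificial necrotic bone fluid (aNBF), made by freezing and thawing bone. Abdominal fat that had been freeze-thawed settled into layers, of which Con cells (fat control medium) were given the middle one and Fat cells (high-fat-containing medium) the fatty one on top, so Con cells too met material from necrotic fat. The age of the donors and whether replicates came from separate animals are not given in the sources used here, so any p-value measures the spread between these libraries, which may be technical. Pairs of values are given below as replicate 1 and then replicate 2 of the group.

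Caveolae are small flask-shaped pits of the plasma membrane, abundant in adipocytes, endothelial cells and fibroblasts and scarce in most blood cells. Caveolins insert into the inner face of the membrane and bind cholesterol, and cavins form the coat around the pit. Flotillins are unrelated in sequence to caveolins, belong to the stomatin, prohibitin and flotillin (SPFH) family, and form scaffolds on flat, cholesterol-rich patches that take part in endocytosis and signalling in macrophages and many other cells.

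The macrophage identity of the cultures was checked first. All 10 macrophage markers were listed and tested. Levels are given in CPM (read counts scaled to a common library total, regardless of gene length). The markers summed to 36508 and 34402 CPM in the Con libraries and to 28948 and 27318 CPM in the Fat libraries. Most of each sum was Lyz2, at 28720.5 and 26818.8 CPM in Con and 21516.1 and 20346.7 CPM in Fat. Lyz2 was not called (log2 fold change -0.41, limma adjusted p = 0.209), so the lower sum in Fat rests mainly on a gene that was not called. Of the 10 markers, 3 (Mertk, Fcgr1 and Aif1) were called lower in Fat and 0 higher. Among all tested genes, limma called 5.0% lower and 3.99% higher. Cd68 and Itgam had positive log2 fold changes (0.09 and 0.07, not called), and those of all other markers were negative. Other cells could also be present, among them types that carry caveolae and blood cells, most of which have few. Stromal markers summed to 645 and 670 CPM in Con and to 538 and 687 CPM in Fat, with Col1a1 at 6554 to 10391 reads in a library. Of the 9 stromal markers, 7 were tested and 1 (Dcn) was called lower. The summed ranges over the 4 libraries were 215 to 258 CPM for smooth muscle markers, 29.9 to 38.0 CPM for endothelial markers (Esam called higher and Vwf lower), 252 to 293 CPM for granulocyte markers and 15.1 to 19.5 CPM for lymphocyte markers. Mesothelial markers held at most 32 reads and erythroid markers at most 2 reads in a library. In bulk RNA, fewer cells of a type and less RNA per cell cannot be told apart.

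Cav1 encodes caveolin-1, the main structural protein of caveolae outside muscle, and it showed the largest fold difference of the 5 genes. The Con libraries held 12.4 and 11.1 CPM of it, and the Fat libraries 27.5 and 26.1 CPM. Both Fat libraries lay above both Con libraries, by at least 13.7 CPM. The means were 11.7 ± 0.914 CPM in Con and 26.8 ± 1.02 CPM in Fat (SD, n = 2 each), a 2.28-fold difference. The log2 fold change was 1.19 (standard error 0.09), against a spread between replicates of 0.09 on the same scale, and it was the 45th highest of the 12470. The values rested on 419 and 415 reads in Con and 1027 and 1069 reads in Fat, for which counting alone gives a standard error of between 3.06% and 4.91%.

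Cav2 encodes caveolin-2, which joins caveolin-1 in mixed oligomers and depends on it to reach the plasma membrane. It was at 109 and 104 CPM in Con and at 136 and 128 CPM in Fat. The groups did not overlap, and the nearest pair lay 19.0 CPM apart. The means were 107 ± 3.44 CPM in Con and 132 ± 5.59 CPM in Fat, a difference of 23.8%, with a log2 fold change of 0.31 (standard error 0.06).

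Ptrf encodes cavin-1, the coat protein without which caveolae do not form. It was at 19.9 and 21.5 CPM in Con and at 23.3 and 29.1 CPM in Fat. The Fat libraries were both higher, but by only 1.80 CPM at the nearest, and they differed from each other more than the Con libraries did. The means were 20.7 ± 1.08 CPM in Con and 26.2 ± 4.15 CPM in Fat. The log2 fold change was 0.33 (standard error 0.11), and without Fat replicate 2 it was 0.17. The spread of Ptrf between replicates, 0.17 on the log2 scale, was larger than that of 81.2% of tested genes. Fat replicate 2 also had the highest summed stromal markers (687 CPM), while Fat replicate 1 had the lowest (538 CPM). The high sum came from Col1a1, at 253 CPM in Fat replicate 2 against 195 and 215 CPM in Con. Besides Col1a1, only Lepr (at most 12 reads in a library) was above both Con libraries there. Col1a2, Col3a1, Dcn, Pdgfra and Cxcl12 were below both Con libraries in Fat replicate 2. The part of stromal cells in the Ptrf values was not tested.

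Flot1 encodes flotillin-1, and was the member that lay lower in Fat. It was at 51.6 and 55.0 CPM in Con and at 43.3 and 47.5 CPM in Fat. Every Fat library lay below every Con library, and the highest Fat value minus the lowest Con value was -4.11 CPM. The means were 53.3 ± 2.40 CPM in Con and 45.4 ± 2.95 CPM in Fat, and the log2 fold change was -0.23 (standard error 0.07).

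Flot2 encodes flotillin-2, the partner of flotillin-1 in hetero-oligomers. It was at 69.6 and 71.5 CPM in Con and at 69.0 and 70.8 CPM in Fat. The groups overlapped, and the log2 fold change of -0.013 was smaller than its standard error of 0.05. Its replicates were also close, with a spread of 0.03 on the log2 scale that was larger than that of only 9.88% of tested genes. Its direction depended on the values used, since with TPM (a share of all transcripts that also corrects for gene length) the log2 fold change was 0.019.

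**Figure D1:**
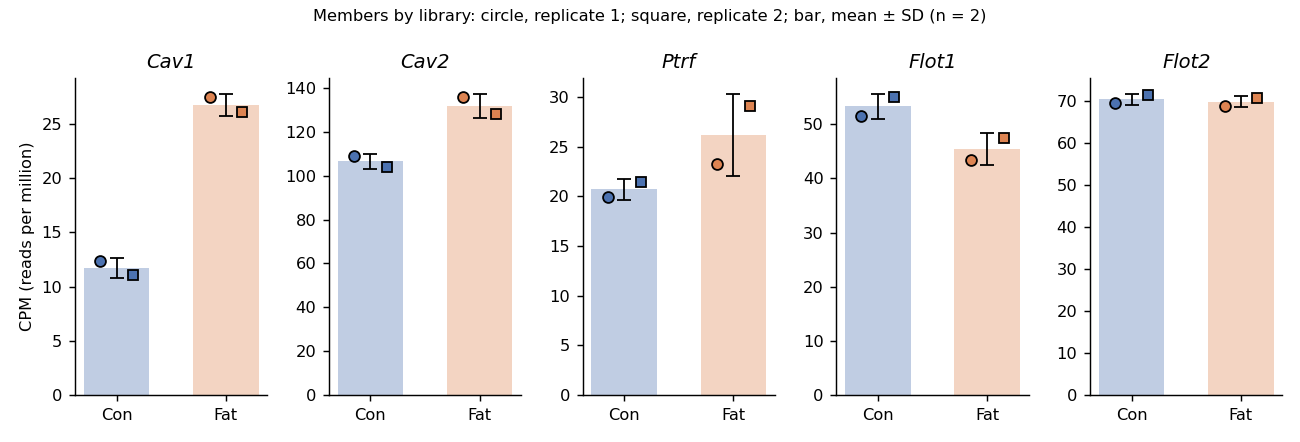
CPM of the 5 genes in each library, with a separate axis from 0 for each gene; circles are replicate 1, squares replicate 2, and bars the mean with the SD (n = 2). Cav1 is the gene with the largest ratio of Fat to Con (27.5 and 26.1 against 12.4 and 11.1 CPM), and Flot2 the gene whose groups overlap.

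Across the 5 genes, 3 (Cav1, Cav2 and Ptrf) lay above Con in both Fat libraries and 1 (Flot1) lay below in both. Among all 12470 tested genes, 29.4% lay wholly above and 26.2% wholly below. For completeness, Cav1 and Cav2 (2 of the 5) were among the 3.99% of all tested genes that the limma fit called higher. Because the choice of members had this contrast in view, these counts are no evidence about the members and nothing is read from them. The median log2 fold change was 0.31 over the 5 genes and 0.01 over all tested genes.

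Levels of different genes were compared per length, as TPM. In Con the order from the highest was Cav2 (69.0 ± 3.17 TPM), Flot1 (68.2 ± 2.13 TPM), Flot2 (54.3 ± 0.275 TPM), Ptrf (13.9 ± 0.534 TPM) and Cav1 (9.17 ± 0.842 TPM). Cav2 and Flot1 did not differ there beyond their spread, and the other neighbours in that order did. In Fat the order was Cav2 (87.3 ± 3.75 TPM), Flot1 (59.4 ± 3.82 TPM), Flot2 (55.1 ± 0.966 TPM), Cav1 (21.5 ± 0.829 TPM) and Ptrf (18.0 ± 2.85 TPM). Cav1 thus stood below Ptrf in both Con libraries (9.77 against 13.6 TPM and 8.58 against 14.3 TPM) and above it in both Fat libraries (22.0 against 16.0 TPM and 20.9 against 20.0 TPM). The last of these pairs differed by less than the spread of Ptrf, and in Fat the distance between Flot1 and Flot2 was likewise close to the spread of Flot1.

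Transcripts of the partner caveolins were far from equal in number. The ratio of Cav2 to Cav1 TPM was 7.29 and 7.78 in the Con libraries and 4.08 and 4.06 in the Fat libraries, so the surplus of Cav2 was smaller in Fat but present in all 4 libraries. Flotillin transcripts were close to equal, with ratios of Flot1 to Flot2 of 1.23 and 1.28 in Con and of 1.04 and 1.11 in Fat. The 3 caveola genes together summed to 94.5 and 89.6 TPM in Con and 128 and 126 TPM in Fat. Cav1 made up 9.97% of that mean sum in Con and 16.9% in Fat, and Cav2 74.9% and 68.9%. The 2 flotillins summed to 121 and 124 TPM in Con and 111 and 118 TPM in Fat.

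**Figure D2:**
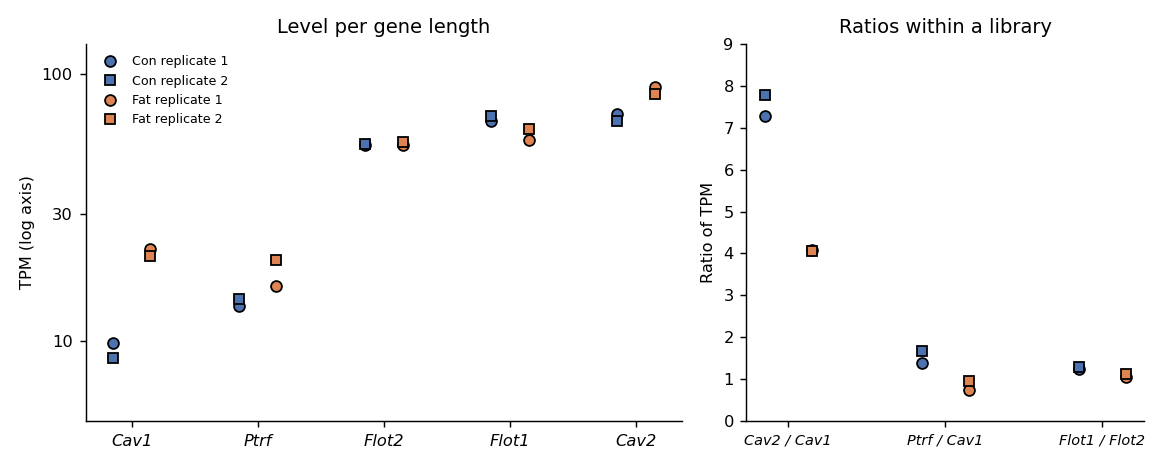
Left, TPM of each gene in each library on a log axis, ordered by the Con mean; right, ratios of TPM between pairs of genes within each library; circles are replicate 1 and squares replicate 2, Con in blue and Fat in orange. Cav1 lies below Ptrf in Con and above it in Fat, and the Cav2 to Cav1 ratio lies between 7.29 and 7.78 in Con and between 4.06 and 4.08 in Fat.

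Adipocytes hold many caveolae, and their markers were checked beside these genes. Of 14 adipocyte markers, 9 were higher in both Fat libraries than in both Con libraries, against 29.4% of all tested genes. Only 3 of the 14 passed the filter, so this share is a rough guide for such low values. Cidec and Car3 passed it only through the Fat libraries, where they were high, so nothing is read from their being called higher. Lipe, the third, passed it in every library and was not called (log2 fold change -0.20). The list summed to 20.3 CPM in each Con library and to 28.5 and 24.9 CPM in Fat. Adipoq (adiponectin) and Lep (leptin) were at 0 reads in Con, and in Fat at 28 and 14 reads and at 30 and 18 reads. Some other markers had a few reads in Con, such as Retn at 3 and 2. Without Lipe, a lipase gene at 609 to 763 reads that was set aside after its values were seen, the other 13 markers held 6 and 9 reads in Con and 453 and 256 reads in Fat. Most of these Fat reads came from Car3 (269 and 139 reads) and Cidec (67 and 47 reads). The part of adipocyte RNA in the Cav1, Cav2 and Ptrf values was not tested.

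No stretch of 75 bases in the annotated transcripts of the 5 genes (GENCODE M21) was found unchanged in a transcript of another gene. An antisense gene, Gm15581, overlaps both Cav1 and Cav2 on the opposite strand. The library kit keeps the strand, but whether strand was used in counting is not given in the sources used here, and without it reads of Gm15581 could not be told apart from those of Cav1 and Cav2.

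Cav2 and Cav1 lie side by side on mouse chromosome 6, and their promoters are shown because these genes were both higher in Fat, with that of Flot2 as the member whose groups overlapped. RefSeq promoters (build GRCm38.p6, matched by symbol, from 250 bases before to 50 bases after the start site) were held for 4 of the 5 genes. Capitals mark matches, on either strand, to motifs that stand among all 32851 promoters of this length at the following shares: the GC box GGGCGG (in 35.7%), the TATA box TATAAA (in 13.6%), the nuclear receptor element AGGTCA (in 16.3%), the hypoxia response core ACGTG (in 19.6%) and the E box CACGTG, which holds that core (in 7.15%).
Cav1 first start site, chr6:17306085-17306384, plus strand: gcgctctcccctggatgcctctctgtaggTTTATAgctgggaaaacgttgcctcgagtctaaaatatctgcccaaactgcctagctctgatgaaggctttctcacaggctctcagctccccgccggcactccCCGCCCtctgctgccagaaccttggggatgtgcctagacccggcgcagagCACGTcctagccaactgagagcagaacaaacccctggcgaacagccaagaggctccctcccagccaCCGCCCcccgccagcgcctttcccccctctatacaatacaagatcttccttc
Cav2, chr6:17280935-17281234, plus strand: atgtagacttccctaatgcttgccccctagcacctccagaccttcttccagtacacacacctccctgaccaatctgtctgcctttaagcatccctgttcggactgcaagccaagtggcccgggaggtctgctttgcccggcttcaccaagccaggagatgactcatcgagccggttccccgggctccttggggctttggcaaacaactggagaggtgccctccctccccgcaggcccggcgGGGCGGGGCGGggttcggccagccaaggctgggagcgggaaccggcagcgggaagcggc
Flot2, chr11:78037681-78037980, plus strand: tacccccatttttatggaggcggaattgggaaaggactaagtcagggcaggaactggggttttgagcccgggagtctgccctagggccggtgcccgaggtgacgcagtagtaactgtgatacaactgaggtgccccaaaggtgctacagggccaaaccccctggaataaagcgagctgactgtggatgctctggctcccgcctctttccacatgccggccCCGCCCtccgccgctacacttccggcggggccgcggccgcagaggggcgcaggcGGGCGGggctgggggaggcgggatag

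Each of these 3 windows held 2 matches to the GC box, which overlapped by a base in Cav2. Those of Cav1 began 118 and 2 bases before the start site on the reverse strand, those of Cav2 began 9 and 4 bases before it, and those of Flot2 began 30 bases before it and at base 25 of the transcript. Cav1 also held 1 hypoxia response core, 68 bases before the start site, and 1 TATA box match on the reverse strand, 221 bases before it. The windows of Ptrf, which are not shown, each held 1 GC box and 1 hypoxia response core. The window at the other Cav1 start site held 0 matches to any of the motifs. GC content was 59.3% in the Cav1 window, 64.3% in Cav2, 66.7% in Ptrf and 64.7% in Flot2, against a median of 52.7% over all promoters. The AGGTCA and CACGTG letters were in none of the 6 windows of these genes, which says only that they are not in these stretches.

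The genes next to the members were then compared, taking the nearest listed gene on each side in the order of the reference annotation. Met, the receptor of hepatocyte growth factor and the gene after Cav1, was at 158 and 201 CPM in Con and at 305 and 276 CPM in Fat. It rose by 0.70 on the log2 scale (SE, the standard error, 0.11, limma adjusted p = 0.0112). Beyond the rule, the window was widened to 5 listed genes on each side of Cav1 after these values had been seen. Tes, which encodes the focal adhesion protein testin, rose from 75.4 and 85.4 CPM in Con to 105 and 109 CPM in Fat (log2 fold change 0.41, SE 0.07, limma adjusted p = 0.0154). The order along the chromosome is Tes, D830026I12Rik, Cav2, Cav1 and Met, and the 4 of these that passed the filter were all higher in both Fat libraries. Among all tested genes, 29.4% lay wholly above Con. Cav1 and Cav2 were chosen with this contrast in view, and the stretch was picked out after its values were seen. Nothing is therefore read from this count. D830026I12Rik had at most 3 reads in a library. The genes tested on either side lay lower in Fat. Tfec, a transcription factor gene before Tes, fell (log2 fold change -0.53, limma adjusted p = 0.0223), and Capza2, an actin-capping gene after Met, was not called (log2 fold change -0.15, limma adjusted p = 0.174). Met was called in 12 of 13 alternative settings, Tes in 11 and Tfec in 9, the first 2 with limma, edgeR or DESeq2 adjusted p-values of up to 0.111 and 0.117. The call of Tes was lost without Fat replicate 2 (limma adjusted p = 0.0524), and that of Tfec, at adjusted p-values of up to 0.141, without Con replicate 1 or Fat replicate 2 (0.0512 and 0.0586) and with TPM values (0.0572).

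**Figure D3:**
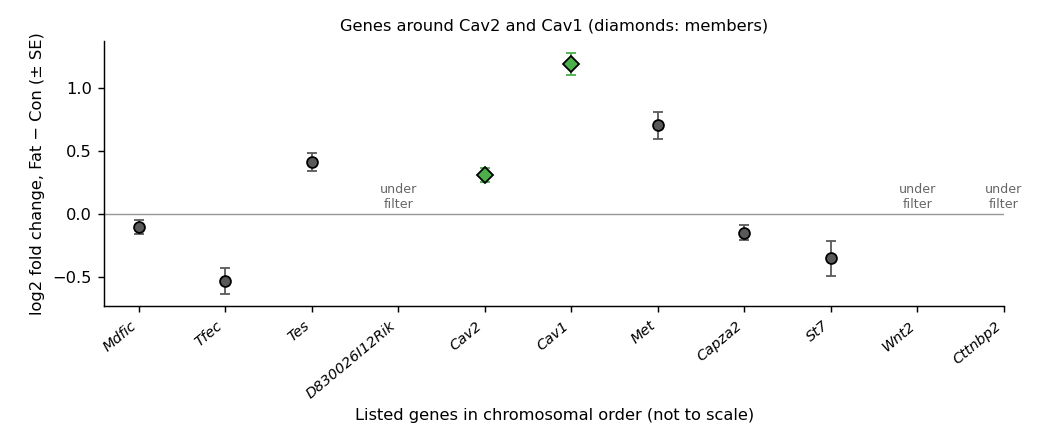
Log2 fold change of Fat over Con with its standard error for the 11 listed genes around Cav1, in chromosomal order and not to scale; diamonds are members, and genes under the filter have no value. Tes, Cav2, Cav1 and Met lie above 0 (0.41, 0.31, 1.19 and 0.70), and the genes tested on either side of them lie below it.

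By the same order, the neighbours of Ptrf and of the flotillins were not called. Stat3, before Ptrf, had a log2 fold change of -0.10 (limma adjusted p = 0.368) and Atp6v0a1, after it, one of 0.10 (limma adjusted p = 0.498). Flot1 lies between Ier3 (log2 fold change -0.15, limma adjusted p = 0.565) and Tubb5 (-0.12, limma adjusted p = 0.30), and Flot2 between Dhrs13 (0.13, limma adjusted p = 0.743) and Eral1 (0.03, limma adjusted p = 0.89).

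Other genes of caveolae were compared in the same fit, which called 3.99% of all tested genes higher and 5.0% lower. The shares with an unadjusted p-value under 0.05 were 11.8% and 12.4%. At those shares few or no calls would be found in a list of this size. Of 10 tested genes of the caveola coat and neck, 0 were called in either direction by limma, by edgeR or by DESeq2, and 0 had an unadjusted limma p-value under 0.05. Their median log2 fold change was 0.06, with values between -0.11 and 0.42. Among the remaining cavins, Prkcdbp (cavin-3) had the largest value of the list and was at 1.95 and 1.17 CPM in Con and at 1.55 and 2.73 CPM in Fat (log2 fold change 0.42, SE 0.32, limma adjusted p = 0.479), so its groups overlapped. Sdpr (cavin-2) was at 1.33 and 1.60 CPM in Con and at 1.34 and 1.44 CPM in Fat, and Murc (the muscle cavin) had between 5 and 14 reads in a library and fell under the filter. The muscle caveolin Cav3 was not among the listed genes. Ehd2, the ATPase of the caveola neck, was at 19.0 and 20.2 CPM in Con and at 19.3 and 22.9 CPM in Fat (limma adjusted p = 0.587), and Pacsin2, a membrane-bending protein of caveolae, at 94.2 and 97.6 CPM in Con and at 96.8 and 101 CPM in Fat (limma adjusted p = 0.694). Sdpr, Murc, Ehd2 and Pacsin2 were named for their roles after their values were seen.

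Relatives and partners of the flotillins form lists that are smaller still, in which the same shares again allow few calls. Of 7 tested SPFH relatives (stomatin, its homologues, prohibitins and erlins), 0 were called by limma, edgeR or DESeq2 and 0 had an unadjusted limma p-value under 0.05, with log2 fold changes between -0.12 (Stoml1, standard error 0.07, limma adjusted p = 0.365) and 0.03. Of 4 flotillin partners (the sorbin-homology adaptors and Cbl), 0 were called by any of these tools, and 1 in each direction had an unadjusted p-value under 0.05. These were Cbl, a ubiquitin ligase (log2 fold change 0.24, SE 0.06, limma adjusted p = 0.0508), and Sorbs3, a sorbin-homology adaptor (-0.40, SE 0.16, limma adjusted p = 0.178), both named after their values were seen. Sorbs2 had the largest value, at 0.796 and 1.49 CPM in Con and 1.63 and 1.66 CPM in Fat (log2 fold change 0.55, SE 0.29, limma adjusted p = 0.308).

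Signalling proteins that gather in rafts included 1 call in each direction. Of 13 tested raft kinases and adaptors, 1 was called higher and 1 lower by limma and by edgeR, and 1 and 2 by DESeq2. The unadjusted limma p-value was under 0.05 for 2 that lay higher and 5 that lay lower (11.8% and 12.4% of all tested genes). Lat, a transmembrane adaptor known from T cells and mast cells, rose from 6.25 and 8.98 CPM in Con to 13.2 and 14.6 CPM in Fat (log2 fold change 0.88, SE 0.17, limma adjusted p = 0.0206). Fgr, a myeloid Src family kinase, fell from 29.6 and 25.9 CPM to 20.1 and 21.5 CPM (log2 fold change -0.41, SE 0.09, limma adjusted p = 0.0292). The median of this list was -0.13. Of 11 GPI-anchored proteins, which sit on the outer face of rafts, 1 was called lower and 0 higher by limma, where the unadjusted p-value was under 0.05 for 3 that lay lower and 0 that lay higher (12.4% and 11.8% of all tested genes), and the median was -0.12. edgeR called 1 lower and 0 higher, and DESeq2 0 in either direction. Ly6e, an interferon-inducible surface protein, fell from 1126 and 924 CPM to 771 and 565 CPM (log2 fold change -0.63, SE 0.15, limma adjusted p = 0.0446, and 0.172 with DESeq2).

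Clathrin-coated pits, the other coated entry route of the plasma membrane, were set beside caveolae. Of 13 tested genes of the clathrin coat, 1 was called higher and 0 lower by limma, 1 and 0 by edgeR and 2 and 0 by DESeq2, and 3 and 0 had an unadjusted limma p-value under 0.05 (11.8% and 12.4% of all tested genes), with a median log2 fold change of 0.08. Cltb, a clathrin light chain, rose from 22.0 and 27.6 CPM in Con to 33.0 and 36.4 CPM in Fat (log2 fold change 0.49, SE 0.11, limma adjusted p = 0.0372). In all, 2 of 58 related genes were called higher and 2 lower by limma, against 3.99% and 5.0% of all tested genes. None of the 4 calls held without the mean-variance trend, where the fold changes are the same, nor without Fat replicate 2. There the log2 fold changes were 0.81 for Lat, -0.46 for Fgr, -0.40 for Ly6e and 0.42 for Cltb (limma adjusted p = 0.0562, 0.0522, 0.118 and 0.128), in a fit where the lone Fat library is assumed to vary like the Con libraries. Without Con replicate 1 the calls of Fgr, Ly6e and Cltb were lost (limma adjusted p = 0.114, 0.0994 and 0.0854), and without Fat replicate 1 that of Fgr (0.0825). Over the 13 alternatives adjusted p-values reached 0.123 for Lat, 0.131 for Fgr, 0.186 for Ly6e and 0.164 for Cltb.

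**Figure D4:**
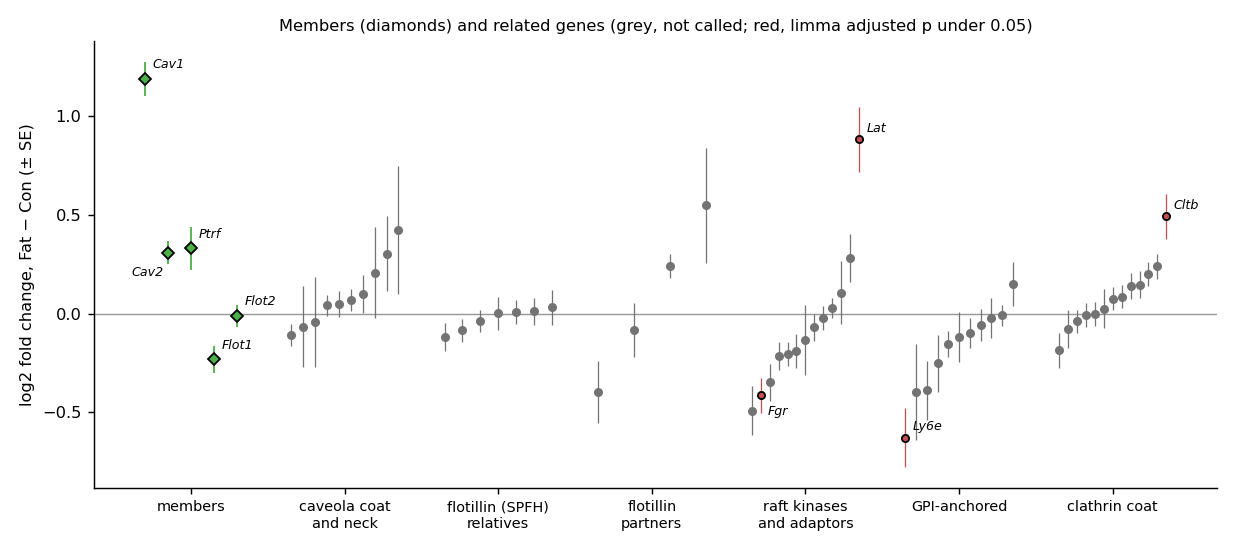
Log2 fold change of Fat over Con with its standard error for the 5 members (diamonds) and 58 related genes in 6 lists (circles; red where called by limma). Cav1, at 1.19, lies above every related gene, the highest of which is Lat at 0.88, and the caveola coat and neck genes lie between -0.11 and 0.42 with none called.

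The genes whose pattern over the 4 libraries was nearest to each member were found by the root mean square distance between profiles on the log2 scale, each centred on its own mean. For Cav1 only 5 tested genes lay within a distance of 0.1, the nearest of them Klf11 (0.0529), a Krüppel-like transcription factor gene, Glul (0.0576) and Acot4 (0.0676), a peroxisomal thioesterase gene. Klf11 was at 9.29 and 8.64 CPM in Con and at 20.7 and 21.4 CPM in Fat, and Glul, which encodes glutamine synthetase, at 464 and 426 CPM in Con and at 961 and 1008 CPM in Fat. For the other members many more genes were as near: 1262 for Cav2, nearest Syk, Proser1 and Pde1b (up to 0.0097); 474 for Ptrf, nearest Ppan, Sema3a and Gspt2 (up to 0.0203); 1659 for Flot1, nearest Ly6d, Aacs and Ttl (up to 0.0162); and 6451 for Flot2, nearest Tpgs2, Hsd17b12 and Bet1 (up to 0.0041). The distance rests on 4 libraries in 2 groups, so likeness here is mostly a like difference between Fat and Con.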

How the data were processed

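RNA of 4 libraries (Con and Fat, replicates 1 and 2) was sequenced as single reads. The authors deposited the values as CPM, scaled by library size with a further factor per library (between 0.990 and 1.01), and as TPM. The submitters' processing notes list the build GRCm39, while the aligner and counter are not given in the sources used here. The deposited values are labelled igenomes, with no version of the annotation. Whole reads were recovered for 100% of the CPM values (within 0.01 read), and totalled 33573852 to 40785872 reads per library. Samples were grouped by the con or high in their titles.

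Fat was compared with Con with limma 3.58.1 in R 4.3.3, fitted with a mean-variance trend to log2-transformed CPM (pseudocount 0.1), two-sided, for genes that reached 0.5 CPM in 2 or more libraries, with Benjamini-Hochberg adjustment over all 12470 genes and calls at an adjusted p-value under 0.05. On recovered reads, edgeR 4.0.16 (quasi-likelihood) called 490 genes higher and 648 lower, and DESeq2 1.42.0 called 456 higher and 595 lower. Other alternatives were a pseudocount of 1, no filter, TPM, median-ratio scaling, no trend, a filter on the mean (5 CPM), a replicate block and each library left out. Standard errors from read numbers cover counting error only, with no molecular identifiers. The fits were tested on simulated data. The chi-square of read counts between replicates, 13.2 per gene in Con and 13.0 in Fat, was far above counting noise, so all libraries were kept as separate samples. An exact permutation test of 2 against 2 cannot go below p = 0.333.

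Members and lists were chosen with earlier results of these data known. Named are the members, called related genes (or each list's largest change), markers, the nearest neighbours of each member, and the 3 genes of nearest pattern.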

Additional observations from a re-analysis of the deposited data

How the results depend on the processing

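Cav1, Cav2, Ptrf and Flot1 kept their direction in all 13 alternatives, which with 2 libraries a group and no overlap could not be otherwise for the 4 that leave out a library. Flot2 kept it in 10 of 13 and was 0.019 with the TPM values. With each library left out in turn, the log2 fold changes lay between 1.11 and 1.27 for Cav1, 0.26 and 0.35 for Cav2, 0.17 and 0.49 for Ptrf, -0.30 and -0.17 for Flot1, and -0.032 and 0.0061 for Flot2. Over all genes, limma called 498 higher and 624 lower, 19 and 12 without the mean-variance trend, 366 lower with TPM, and 216 to 519 higher and 313 to 612 lower with a library left out. The fewest calls came without Fat replicate 2 (216 and 313), and 334 genes were called lower without Con replicate 1. Among related genes (2 and 2 called), 0 and 0 were called without the trend, 0 lower with TPM, 1 lower with no filter and 1 lower with a mean of at least 5 CPM. With a library left out, 0 to 3 were higher and 0 to 5 lower, with 0 and 0 without Fat replicate 2, 0 lower without Con replicate 1 and 5 lower without Con replicate 2. With the replicate block 1278 and 1242 genes were called, and 6 and 9 related genes. Same-numbered libraries deviated together (correlation 0.20 across genes), but they share only a number, so the block was not the main design. The cause of these differences was not tested. With 2 libraries a group, small changes such as those of Flot2 could not be told from 0.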

Other observations

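Esam, which encodes an adhesion molecule of endothelial cells, was the gene of its marker list that was called higher. Con replicates 1 and 2 held 10 and 16 of its reads, and Fat replicates 1 and 2 held 52 and 50, or 0.295 and 0.426 CPM against 1.39 and 1.22 CPM (log2 fold change 1.62, SE 0.28, limma adjusted p = 0.0163). Esam passed the filter only through the Fat libraries, where it was high, so nothing is read from its call. Both Fat libraries lay above both Con libraries for Esam, as for 4 of the 9 listed endothelial genes in all, against 29.4% of all tested genes. Only 3 of the 9 passed the filter, and the 4 include genes with very few reads, such as Tek (0 and 1 in Con, 4 and 2 in Fat). Nothing is read from this count. Vwf (von Willebrand factor), the most abundant of the list, fell from 34.3 and 35.6 CPM to 26.5 and 28.8 CPM (log2 fold change -0.34, SE 0.07, limma adjusted p = 0.0289). Of the others, Cdh5 (VE-cadherin) had 6 and 22 reads in Con and 12 and 15 in Fat, Kdr (a VEGF receptor) 18 and 18 reads in Con and 28 and 22 in Fat, Plvap, a protein of the diaphragms of endothelial caveolae, 0 reads in Con and 1 read in each Fat library, and Emcn (endomucin) 9 and 3 reads in Con and 0 and 1 in Fat. Tie1, Tek and Egfl7 had at most 20 reads in a library. Esam and these genes were picked out after their values were seen.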
